A study of Mus musculus with 242 samples.

Results

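Iodoform is an iodine-bearing halogenated methane that has long been used as an antiseptic. Its effect on liver RNA was described here from the 4 arrays labelled Iodoform, 93 mg/kg, out of 242 arrays in the series. These arrays were compared with the 4 corn oil control arrays of the set whose titles contain CCO4, and all probe sets of the arrays entered the comparison. The series exposed female B6C3F1 mice to 26 chemicals and measured liver RNA on Mouse430_2 microarrays, with 1 array for each mouse by title. Exposure began at 5 weeks of age and lasted 13 weeks, so that the mice were 18 weeks old at harvest.

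Iodoform mice received 93 mg/kg in corn oil by gavage on 5 days per week, and control mice received the same volume of corn oil, 5 ml/kg, on the same schedule. A further group of 4 mice in the same run received 3925 mg/kg of trichlorofluoromethane, a halogenated methane carrying chlorine and fluorine, in the same vehicle. The 2 chemicals were given at different doses, so that compound and dose cannot be told apart between them. All 36 arrays of the run, in 9 groups, were fitted together with limma on log2 of signal plus a pseudocount of 17.32, and the spread was shared across groups. A probe set was called where its Benjamini-Hochberg adjusted p over all 45037 probe sets was under 0.05 and its fold was at least 1.5. Signals are linear intensities, and levels are not compared between probe sets.

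The liver handles many foreign chemicals and also makes secreted proteins and lipids for the rest of the body. Small calcium-binding proteins of the S100 family, secreted protease inhibitors and apolipoproteins are among the products whose RNA can be read in whole liver tissue. Iodide from iodine-bearing compounds is used by the thyroid gland, whose hormones act on liver genes such as Thrsp and Dio1. In whole tissue, a change in the number of cells of a type and a change in RNA per cell cannot be told apart.

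Of the 4 iodoform arrays, 2 stood apart. Replicate 4 held transcripts of pancreatic acinar cells: the summed signal of 16 acinar markers was 109600 in that array, against 3376 to 3993 in the other 3 iodoform arrays and 5300 to 7026 in the controls. Cela2a, a pancreatic elastase, had a signal of 13790 in replicate 4 and 142.9 to 256.7 in the other iodoform arrays. Replicate 2 had the brightest upper end of all 242 arrays, with a 99.9th percentile of 82610 against a series median of 52920. Its hepatocyte marker sum was the highest of the group, which ranged from 522500 to 1118000, against 530600 to 670100 in the controls. RNA integrity numbers were 8.7 to 8.9 in the 3 iodoform arrays that have one and 8.3 to 8.6 in the controls. The part of RNA integrity in the results was not tested. For the called genes, and for several lists whose counts moved, values without these arrays are given below. Other lists moved too. Of 15 gluconeogenesis and fasting genes, 1 lay below all controls with 4 arrays and 4 (26.7%) without both. Of 19 circadian clock genes, 0 lay above all controls with 4 arrays and 4 (21.1%) without both. Leaving out arrays also raises the share of all genes whose groups do not overlap: all iodoform arrays were above all controls in 3.17% of 18193 genes with 4 arrays, 5.24% without replicate 2, 4.24% without replicate 4 and 7.99% without both. They were below in 2.75%, 5.39%, 4.68% and 9.89%. In the same run, 2 air control arrays carry the same animal number although their titles differ. They entered only the shared spread, and without them all 10 calls described below were kept among 13.

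Iodoform changed few liver transcripts past the threshold. Of 45037 probe sets, 8 were called higher (0.0178%) and 2 lower (0.00444%) than in corn oil controls. At an unadjusted p under 0.05, 859 probe sets were higher (1.91%) and 1257 lower (2.79%). Together these were 4.7% of probe sets, less than the share of 0.05 that the threshold gives with no change at all. The higher calls were S100g, Spink1, Smpdl3b, Slpi, Ifi27l2b, Csn3 and 2 probe sets of Apoa4. The lower calls were 1449525_at, which has no gene symbol in the annotation used, and 1 probe set of Ppat.

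**Figure D1:**
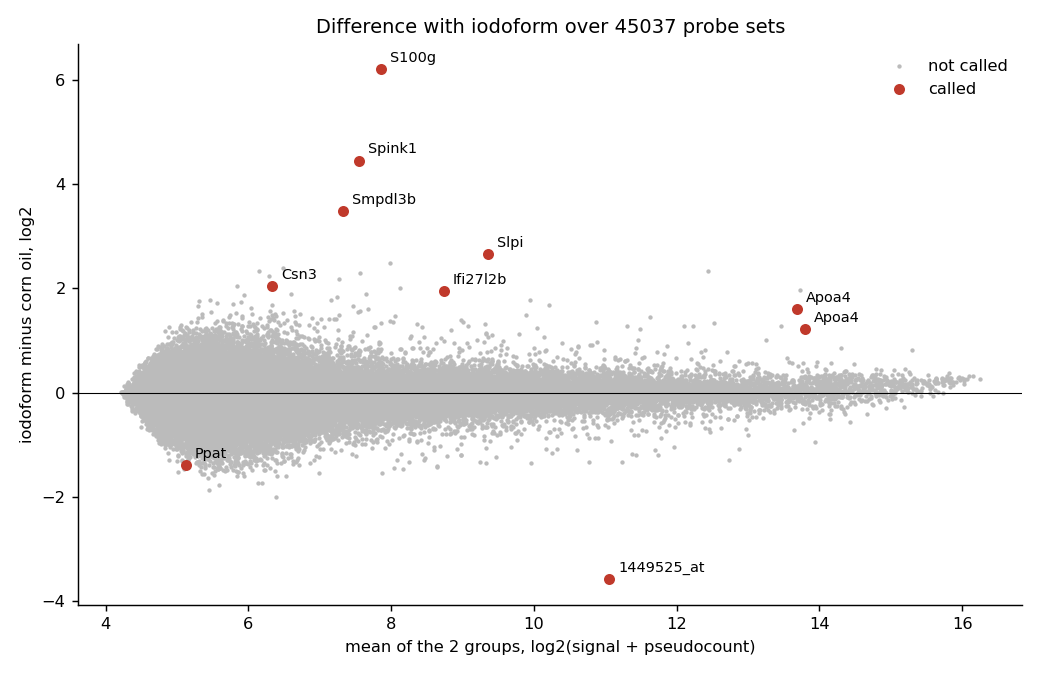
Iodoform minus corn oil difference (log2, vertical axis) of each of 45037 probe sets against the mean log2 level of both groups (horizontal axis), with the 10 called probe sets in red and labelled. S100g, at 6.20, lies farthest from 0.

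S100g encodes calbindin-D9k, a small calcium-binding protein best known from intestine, where vitamin D raises it. Its signals (1448964_at) were 3081, 3037, 1381 and 1189 in the iodoform mice and 17.0, 7.72, 9.64 and 6.17 in the corn oil mice. Every iodoform array lay above every control, whose signals were all below the pseudocount. The difference was 6.20 ± 0.40 (log2, SE, n = 4 per group), a fold of 73.6 on this scale, with a limma adjusted p of 1.5e-11. Because the controls were so dim, the size depends on the pseudocount and the scale, and it ranged from 4.70 to 7.15 over 19 alternative settings, all of which kept the call. The highest signal among the other 238 arrays of the series was 141.9, in a trichlorofluoromethane mouse, below the lowest iodoform signal. Among 17 corn oil control arrays of other runs it reached at most 64.9.

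Spink1 encodes a secreted trypsin inhibitor made by pancreatic acinar cells and other epithelia. Its signals (1415938_at) were 1166, 784.0, 663.5 and 893.1 with iodoform and 4.30, 52.1, 4.80 and 59.6 with corn oil. The groups did not overlap. The difference was 4.45 ± 0.50 (log2, SE, n = 4 per group; adjusted p = 8.8e-06), and without replicate 4 it was 4.43. In the 3 other iodoform arrays Spink1 was high while 15 of the 16 acinar markers had signals of at most 256.7; the exception, Cela1, had 2563 to 3293 there and 4354 to 6144 in the controls. The part of acinar transcripts in the Spink1 signal of replicate 4 was not tested. One array outside the iodoform group reached 1136.

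**Figure D2:**
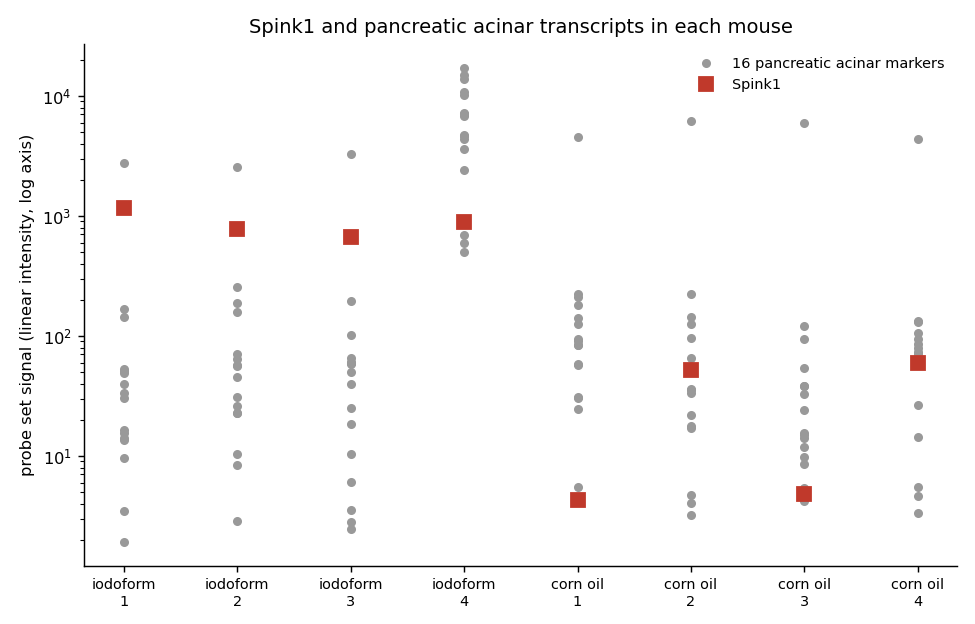
Signal (log axis) of Spink1 (red squares) and of 16 pancreatic acinar markers (grey points) in each of the 4 iodoform and 4 corn oil mice. The acinar markers are high in iodoform replicate 4, whereas Spink1 lies between 663.5 and 1166 in all 4 iodoform mice.

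Slpi, a secreted inhibitor of neutrophil elastase, was the other called member of the protease inhibitors. Its signals (1448377_at) were 1335, 2933, 1691 and 1050 with iodoform and 297.6, 274.5, 262.0 and 159.7 with corn oil. No iodoform array overlapped the controls, and the difference was 2.66 ± 0.36 (log2, SE; limma adjusted p = 2.5e-04). Of 17 measured protease inhibitors, Spink1 and Slpi were called, against 0.0385% of all 18193 genes called at 1 probe set each. This list was taken up because called genes were known to belong to it, so the count is no result about the family. The median difference of the list was 0.10 against -0.03 over all genes.

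Smpdl3b encodes a sphingomyelinase-like enzyme of the cell surface. Its signals (1417300_at) were 473.9, 583.3, 656.5 and 391.1 with iodoform and 31.2, 55.2, 4.30 and 52.4 with corn oil. The groups did not overlap, and the highest signal in the other 238 arrays was 190.0. The difference was 3.48 ± 0.44 (log2, SE; limma adjusted p = 1.1e-04). Smpdl3b was the only called gene among 20 sphingolipid enzymes, against 0.0385% of all 18193 genes. The median difference of that list was 0.03. The list was chosen with earlier results of these data known, so the count is no result about these enzymes.

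Probe set 1449525_at went the other way. Its signals were 804.1, 955.8, 184.0 and 865.3 with iodoform and 11940, 6168, 5478 and 7196 with corn oil. Each iodoform array was below each control, and replicate 3 was the lowest. The difference was -3.58 ± 0.49 (log2, SE; limma adjusted p = 3.3e-04). In 17 corn oil arrays of other runs the signal was 6034 to 12610, and the lowest value in the other 238 arrays of the series was 981.6.

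**Figure D3:**
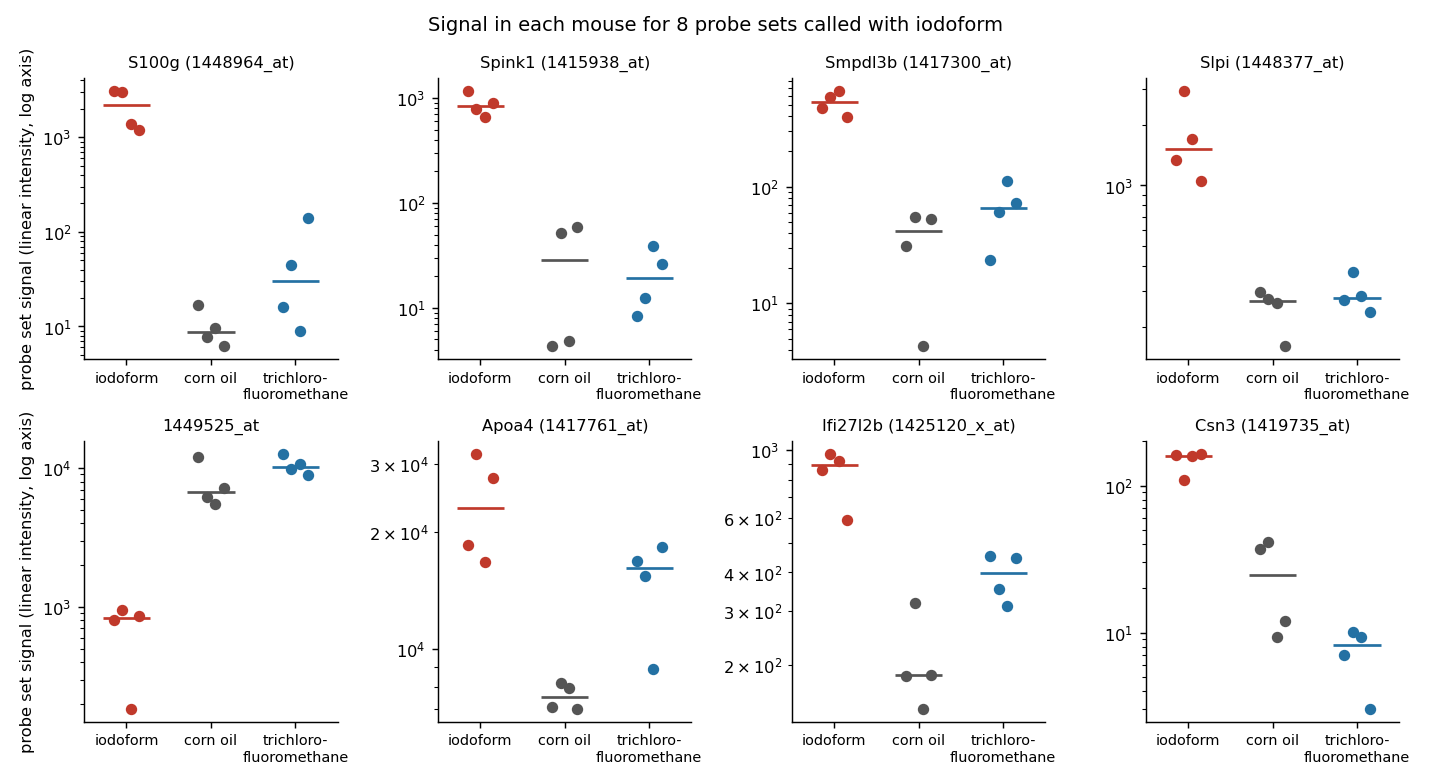
Signal of 8 called probe sets (log axes) in each iodoform, corn oil and trichlorofluoromethane mouse, with a line at each group median. Iodoform mice lie apart from corn oil mice in all 8 panels, whereas for Apoa4 they overlap the trichlorofluoromethane mice.

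Apoa4 encodes an apolipoprotein of triglyceride-rich particles made by intestine and, in mice, by liver. Its brighter-changing probe set (1417761_at) gave 18490, 31820, 16730 and 27560 with iodoform and 7081, 8182, 7942 and 7004 with corn oil. The groups did not overlap, with a difference of 1.60 ± 0.25 (log2, SE; limma adjusted p = 0.0022). The other probe set (1436504_x_at) differed by 1.22 (adjusted p = 0.027), and its call was kept in 2 of the 8 fits that left out 1 iodoform or corn oil mouse. It was lost without iodoform replicate 2 (adjusted p = 0.24), without iodoform replicate 4 (adjusted p = 0.18) and without any 1 of the 4 controls. Without replicates 2 and 4, the differences were 1.22 (limma adjusted p = 0.45) and 0.86 (limma adjusted p = 0.98), and neither was called. In 17 corn oil arrays of other runs, 1436504_x_at reached 19030, above its lowest iodoform signal of 16290. There 1417761_at reached 15290, below its lowest iodoform signal of 16730. Apoa4 was the only called gene among 13 gut epithelium markers, against 0.0385% of all 18193 genes. Of the 13, Apoa4 and Tff3 (15.4%) lay above all controls, against 3.17% of all genes. The sum of the 13 was 22390 to 37700 with iodoform and 13320 to 16480 with corn oil, without overlap, and Apoa4 itself made up 16290 to 30010 and 8872 to 9641 of it. Vil1, which marks gut epithelium, had signals of 16.6 to 74.8 with iodoform and 34.5 to 70.4 with corn oil.

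Ifi27l2b belongs to a family of interferon-inducible genes. Its signals (1425120_x_at) were 862.2, 968.7, 919.5 and 591.3 with iodoform and 184.5, 317.6, 144.5 and 186.7 with corn oil. The groups did not overlap, and the difference was 1.95 ± 0.31 (log2, SE; limma adjusted p = 0.0027). Without replicates 2 and 4 it was 2.06, with a limma adjusted p of 0.051. In 17 corn oil arrays of other runs the signal was 117.4 to 609.2, which overlaps the lowest iodoform array. Of 33 interferon-stimulated genes Ifi27l2b alone was called, against 0.0385% of all 18193 genes. In 3 of the 33 all iodoform arrays were above all controls (3.17% of all genes), and in 3 they were below (2.75%), among them Rsad2 at -0.71 (adjusted p = 0.99).

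Csn3 and Ppat rested on single, dim probe sets. Csn3, a milk casein gene, had signals (1419735_at) of 162.1, 109.2, 158.1 and 164.2 with iodoform and 37.1, 41.0, 9.31 and 11.9 with corn oil. These groups did not overlap (2.05 ± 0.36, log2, SE; limma adjusted p = 0.015), but the call was kept in only 3 of the 8 fits that left out 1 mouse. It was lost without iodoform replicate 1, 3 or 4 and without corn oil replicate 3 or 4, and without iodoform replicates 2 and 4 together the difference was 2.16 (adjusted p = 0.20). A second Csn3 probe set differed by -0.41 (adjusted p = 1). Ppat, which encodes the first enzyme of purine synthesis, had signals (1441770_at) of 4.90, 2.40, 3.85 and 5.73 with iodoform and 35.9, 24.7, 61.8 and 40.6 with corn oil. Its difference was -1.40 ± 0.23 (log2, SE; limma adjusted p = 0.0051), and without iodoform replicates 2 and 4 it was -1.38 (adjusted p = 0.20). The call was also lost without corn oil replicate 3. The 2 brighter Ppat probe sets differed by -0.14 and 0.01, and the same dim probe set was also called lower in trichlorofluoromethane against these controls (-1.37, adjusted p = 0.035).

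**Figure D4:**
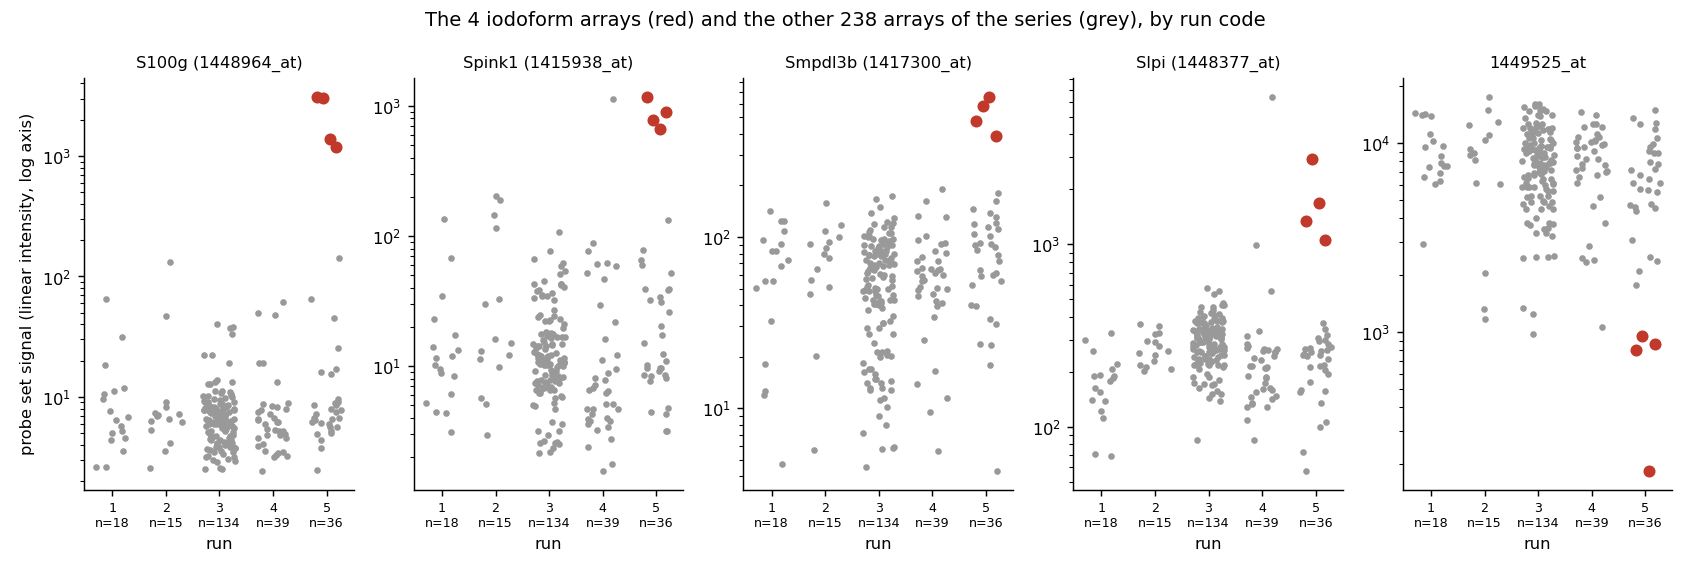
Signal (log axes) of 5 called probe sets in the 4 iodoform arrays (red) and the other 238 arrays (grey), by run code. For S100g and Smpdl3b the 4 iodoform arrays lie above all others, for 1449525_at below all others, and for Spink1 and Slpi 1 other array each exceeds the lowest iodoform array.

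The 250 bases before the RefSeq start sites (GRCm38.p6) are printed for S100g, Smpdl3b and Slpi, 3 of the called genes that rose in all 4 mice. Such windows were at hand for 5 of the 8 called genes, and not for Spink1, Ifi27l2b and Csn3. Capitals mark AGGTCA on either strand, the core of many nuclear receptor sites, including those of the vitamin D and thyroid hormone receptors.
S100g, chrX:162964600-162964849, minus strand: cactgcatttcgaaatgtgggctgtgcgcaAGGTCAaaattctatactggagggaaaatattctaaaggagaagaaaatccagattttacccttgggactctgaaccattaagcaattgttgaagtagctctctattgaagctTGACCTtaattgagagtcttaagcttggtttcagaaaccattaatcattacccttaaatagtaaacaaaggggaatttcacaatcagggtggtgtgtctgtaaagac
Smpdl3b, chr4:132757172-132757421, minus strand: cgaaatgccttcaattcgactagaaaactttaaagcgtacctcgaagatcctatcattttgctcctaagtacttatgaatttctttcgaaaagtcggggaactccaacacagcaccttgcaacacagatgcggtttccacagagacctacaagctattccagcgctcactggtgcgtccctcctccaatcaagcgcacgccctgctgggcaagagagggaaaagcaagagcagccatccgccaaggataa
Slpi, chr2:164356508-164356757, minus strand: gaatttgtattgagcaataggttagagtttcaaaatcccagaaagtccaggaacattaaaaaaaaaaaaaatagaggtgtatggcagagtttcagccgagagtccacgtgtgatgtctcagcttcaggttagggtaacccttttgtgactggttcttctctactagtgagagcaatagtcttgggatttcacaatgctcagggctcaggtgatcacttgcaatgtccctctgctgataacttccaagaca
AGGTCA was found at 2 places in the S100g window, starting 220 and 107 bases before the start site, and in neither of the other printed windows. It occurred in 14.0% of 32851 RefSeq promoter windows of 250 bases. The TATA box letters TATAAA, searched on both strands too, were in none of these 3 windows and in 12.4% of all windows. The windows of Apoa4 and Ppat, which are not printed, held neither AGGTCA nor TATAAA. A match describes letters in the window and says nothing of binding.

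Just outside the threshold were Rnd2 at 1.31 (log2; adjusted p = 0.051), Rarres1, a retinoic acid-responsive gene, at 1.45 (0.052), Gstm5, a glutathione transferase, at 1.01 (0.062), and Fabp5, a fatty acid-binding protein, at 1.97 (0.062). Gstm5 signals were 3979, 4228, 3931 and 3806 with iodoform and 1997, 1950, 2190 and 1751 with corn oil, and the highest value in the other 238 arrays was 2689. Fabp5 signals (1416021_a_at) were 14860, 30130, 41460 and 27910 with iodoform and 6658, 6381, 6406 and 8080 with corn oil. Neither gene overlapped between the groups. These 4 genes were called when 1 probe set per gene was tested. For Rnd2 the corn oil controls were the lowest group of the run, with a median signal of 379.7. The iodoform median of 992.3 was near those of the air controls (943.5) and the tetrafluororethane group (1051). Rarres1 was 4455 to 5627 with iodoform and 3010 to 5361 with trichlorofluoromethane, which overlap. Tff3, a secreted trefoil peptide, differed by 2.00 (adjusted p = 0.22), and Ly6d by 2.30 (adjusted p = 0.34). Tff3 signals were 418.8 to 645.6 with iodoform and 105.8 to 128.4 with corn oil, without overlap. Among genes with lower signals, Zap70 (1422701_at) gave 868.9, 856.7, 762.7 and 957.5 with iodoform and 2118, 1785, 1852 and 1639 with corn oil, a difference of -1.08 (adjusted p = 0.40). Across the 36 arrays, Spink1, Slpi, Gstm5, Tff3 and Elapor1 had the patterns most like S100g (Pearson r of 0.89, 0.85, 0.79, 0.75 and 0.74). Over the 32 arrays outside the iodoform group these values were 0.25, 0.22, 0.12, 0.54 and 0.19, and all arrays share the run.

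Of the pathway lists, fatty acid synthesis and lipid storage had the largest share of members on one side. None of its 31 measured genes was called. In 14 (45.2%), however, all iodoform arrays were above all controls, against 3.17% of all genes, and in none were they below, against 2.75%. The median difference was 0.38, and 11 members (against 1.95% of all genes) had an unadjusted p under 0.05 with a higher mean. Elovl6, which elongates fatty acids, gave signals of 2996, 2319, 5388 and 2102 with iodoform and 838.4, 1018, 1219 and 1671 with corn oil (1.36 ± 0.42, log2, SE; limma adjusted p = 0.79). Fasn, the fatty acid synthase, differed by 1.01, Acaca, the acetyl-CoA carboxylase of that pathway, by 0.83, and Cd36, a fatty acid carrier, by 1.49, none of them called. Plin2, which coats lipid droplets, differed by -0.21. Without replicate 2 or without replicate 4, 16 members (51.6%) lay above all controls, against 5.24% and 4.24% of all genes, and without both 18 (58.1%) did, against 7.99%. Below all controls were 1 member (3.23%) without replicate 2, 2 (6.45%) without replicate 4 and 4 (12.9%) without both, against 5.39%, 4.68% and 9.89% of all genes.

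**Figure D5:**
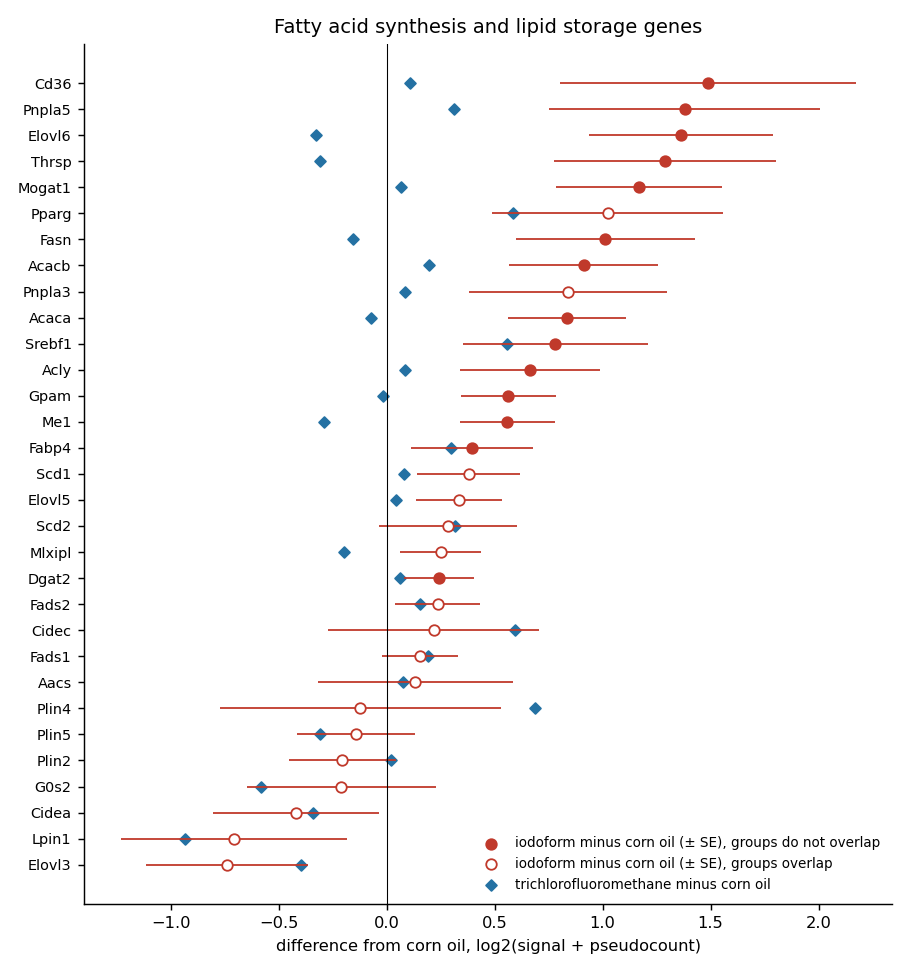
Iodoform minus corn oil difference (log2, red, with SE bars) of the 31 fatty acid synthesis and lipid storage genes, filled where all iodoform arrays lay outside the controls, with the trichlorofluoromethane minus corn oil difference (blue diamonds). 14 genes are filled, all to the right of 0.

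NRF2 targets, which respond to electrophiles, had 0 of 24 members called. In 7 (29.2%) all iodoform arrays were above all controls, against 3.17% of all genes. At an unadjusted p under 0.05 in limma 5 were higher (1.95% of all genes were). Their median difference was 0.16, and examples were Ephx1, an epoxide hydrolase, at 0.51 (adjusted p = 0.95) and Gstm3 at 0.94 (adjusted p = 1). Me1, a member of this list, of the fatty acid list and of the thyroid hormone list below, differed by 0.56. Genes of ER and amino acid stress had 0 of 24 called, 1 higher and 5 lower at an unadjusted p under 0.05 in limma (1.95% and 2.7% of all genes), and a median of -0.22. In 2 members (8.33%) all iodoform arrays were below all controls, in 6 (25.0%) without replicate 2, in 2 without replicate 4 and in 8 (33.3%) without both, against 2.75%, 5.39%, 4.68% and 9.89% of all genes. Creld2 differed by -1.33 and Manf by -0.81, both with overlapping groups, whereas Asns, asparagine synthetase, differed by 1.11 without overlap (adjusted p = 0.77). Of the 20 thyroid hormone response genes 0 were called, and 3 were higher at an unadjusted limma p under 0.05 (1.95% of all genes were). In 2 (10.0%) all iodoform arrays lay above all controls, against 3.17% of all genes. With all 4 arrays 0 lay below, against 2.75% of all genes. Without both of the replicates that stand apart, 2 members (10.0%) lay above and 4 (20.0%) below. The shares of all genes were then 7.99% and 9.89%. Thrsp, also a member of the fatty acid list, differed by 1.29 without overlap, and Dio1, the liver deiodinase, by -0.46 with overlap. Serpina7, which carries thyroid hormone in blood, gave 2005, 1781, 1430 and 2081 with iodoform and 324.8, 281.8, 479.1 and 1552 with corn oil (1.78, adjusted p = 0.62). Of 17 CAR and PXR targets 0 were called and 3 were lower at an unadjusted limma p under 0.05 (2.7% of all genes were). All iodoform arrays were below all controls in 3 (17.6%), and in 5 (29.4%) without replicate 2, against 2.75% and 5.39% of all genes. Cyp2b13 differed by -1.08 (adjusted p = 0.80). Among 21 genes of PPARalpha and fatty acid oxidation 0 were called. At an unadjusted limma p under 0.05, 1 was higher and 2 lower (1.95% and 2.7% of all genes). Below all controls were 3 (14.3%), against 2.75% of all genes. That count was 8 (38.1%) without replicate 2 and 10 (47.6%) without both, against 5.39% and 9.89% of all genes. Of 12 vitamin D and calcium transport genes S100g alone was called, against 0.0385% of all 18193 genes. Trpv6, a calcium channel, differed by 0.19. That list was chosen with earlier results of these data known. Of 16 S100 and calcium-binding genes S100g alone was called, against the same share of all genes. This list was taken up because a called gene belongs to it, so neither count is a result about its list. S100a10 differed by 0.78 without overlap (adjusted p = 0.86).

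Summed markers of several other cell types also separated the groups. Bile duct and progenitor markers were 15100 to 17550 with iodoform and 12170 to 14030 with corn oil, and Kupffer and macrophage markers were 32370 to 39260 and 28230 to 32090. Endothelial markers summed to 13430 to 14400 with iodoform and 14410 to 15010 with corn oil. Iodoform and corn oil did not overlap in these 3 sums or in the gut epithelium sum given with Apoa4. The sums of the other cell types looked at overlapped. The endothelial ranges and the macrophage ranges each nearly touched, and 0 of 12 endothelial markers lay above or below all controls. With trichlorofluoromethane the endothelial sum was 15640 to 16150, also outside the controls, and the macrophage sum was 26120 to 40580. Of 19 bile duct markers 3 (15.8%) and of 14 macrophage markers 1 (7.14%) lay above all controls, against 3.17% of all genes, none of them called. The macrophage count was 4 (28.6%) without replicate 2, 3 (21.4%) without replicate 4 and 7 (50.0%) without both, against 5.24%, 4.24% and 7.99% of all genes. Krt19, which defines bile duct cells, had signals of 35.8 to 122.6 with iodoform and 53.5 to 125.2 with corn oil. The part of these cells in the changes above was not tested.

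Against trichlorofluoromethane, 10 probe sets were called, 7 higher (0.0155%) and 3 lower (0.00666%) with iodoform, and 6 of them were among the 10 called against corn oil. S100g differed by 5.20 (limma adjusted p = 1.8e-09), Spink1 by 4.57 (4.9e-06), Smpdl3b by 2.78 (0.0038), Slpi by 2.43 (0.0012), Csn3 by 2.74 (1.6e-04) and 1449525_at by -4.09 (3.6e-05). Apoa4 (1417761_at) was 16820, 15450, 8873 and 18300 with trichlorofluoromethane, overlapping iodoform, and the difference of 0.67 was not called (adjusted p = 0.85). The trichlorofluoromethane group itself had 4 probe sets called against the same corn oil mice (0.00888%). S100g differed there by 1.00 (adjusted p = 1) and Slpi by 0.23 (adjusted p = 1). In the fatty acid list 1 of 31 genes lay above all controls with trichlorofluoromethane, against 2.12% of all genes. Both comparisons share the 4 corn oil mice.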

How the data were processed

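Liver RNA of the mice was hybridised to Affymetrix Mouse430_2 arrays. The authors deposited 1 intensity per probe set and array, on a linear scale, and the submitters' processing notes name GCOS 1.0; other steps are not given in the sources used here. The trimmed mean (2% off each end) equalled 500 in 240 of 242 arrays, and the other 2, from other runs, were rescaled to it. Log2 of signal plus 17.32 (the 20th percentile of a typical array) was fitted with limma 3.58.1 (lmFit, eBayes) in R 4.3.3 on the 36 arrays of the run, after leaving out 64 control probe sets. P-values were adjusted over all probe sets. Gene names came from the platform annotation: 34945 probe sets had 1 symbol, 932 several and 9160 none. Lists used 1 probe set per gene, 18193 genes in all. The text names called genes, the rises and falls with the lowest p that did not overlap, and up to 4 members of each list.

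The members and lists were chosen with earlier results of these data known. The labels do not tie a control set to a chemical, and the CCO4 set was taken as the rule gives it. Each array is 1 mouse by its title, and the number of arrays limits the precision. The fit was tested on simulated data. Alternatives were another normalisation, pseudocount, filter, test option, gene-level test, a Gapdh 3' to 5' covariate, the 2 groups alone and each mouse left out. Leaving out iodoform replicates 2 and 4, and leaving out 2 air control arrays with the same animal number, were chosen after seeing the data. A few other motifs were searched in the promoter windows first, had no match in the 3 printed ones and were dropped after that was seen.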

Additional observations from a re-analysis of the deposited data

Results flagged for a closer look

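For 1449525_at, iodoform replicate 3 had a signal of 184.0, far below the other 3 iodoform arrays at 804.1 to 955.8. For Csn3 (1419735_at), iodoform replicate 2 had a signal of 109.2, below the others at 158.1 to 164.2. Dixon's test set these arrays apart in 2 of 58 groups of 4 looked at, and chance gives about 1 in 20.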

How the results depend on the processing

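No paired analysis was possible because the labels give no replicate numbers shared by the groups. Against corn oil, where 10 probe sets were called, 19 were called with a pseudocount 4 times higher, 10 with the 2 groups fitted alone (of which 2, S100g and Spink1, were among the main calls), 13 after quantile normalisation and 9 to 12 with 1 mouse left out. With both iodoform arrays that stand apart left out, 5 were called: S100g, Spink1, Smpdl3b, Slpi and 1449525_at. Against trichlorofluoromethane, where 10 were called, 17 were called with the higher pseudocount, 2 with the 2 groups alone and 7 to 18 with 1 mouse left out; the 18 came without iodoform replicate 1. For trichlorofluoromethane against corn oil, where 4 were called, 2 were called after quantile normalisation, 2 with the 2 groups alone, 1 with 1 probe set per gene, 0 with the Gapdh covariate, 1 with the trend and robust options and 0 to 1 with 1 mouse left out. At an unadjusted p under 0.05 in limma, that comparison had 1887 probe sets (4.19%). The causes were not tested. None of the probe sets called against corn oil changed direction in any alternative run. Signals near the pseudocount limit the folds of S100g, Spink1, Smpdl3b, Csn3 and Ppat.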
